A study of Mus musculus with 12 samples.

Results

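The 36 mitosis genes described here encode regulators of entry into and exit from mitosis, the spindle, the kinetochore and cytokinesis. They were taken by symbol from a deposited table of 56748 mouse genes, and each of the 36 symbols matched 1 row. Their RNA was followed in kidneys of 4 groups of 3 libraries each. In the first, cKO IR, Krt20 was conditionally deleted in proximal tubular cells, and both renal pedicles were clamped for 30 min and released 24 h before the kidneys were taken. WT IR kidneys had the same injury (ischemia/reperfusion, IR) without the deletion. The cKO sham and WT sham kidneys came from mice of either genotype that had surgery but no clamping. All mice were male and 8 to 12 weeks old. Krt20 encodes an intermediate filament keratin; the Cre line behind the deletion is not given in the sources used here. Whether the 3 libraries of a group came from 3 animals is not stated in the labels, and p-values measure the spread between libraries, which may be technical. The DNA replication genes, a list of 46, served for comparison. With a single time after reperfusion, the order of replication and mitosis in time was not measured, and only their levels at 24 h could be set side by side.

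In a dividing cell, DNA is copied in S phase, and CDK1 bound to B-type cyclins then drives entry into mitosis. Aurora and polo-like kinases build the spindle, the NDC80 complex ties chromosomes to it, and the spindle checkpoint holds back the anaphase-promoting complex (APC/C) and its activator CDC20 until every chromosome is attached. Most of these genes are transcribed late in the cell cycle, through promoter elements known as the cell cycle genes homology region (CHR) and the CCAAT box, whereas replication genes are typically driven earlier by E2F factors. Kidney tubule cells seldom divide at rest, and surviving tubule cells re-enter the cycle after ischemic injury.

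Promoter windows of 5 members that control entry into and exit from mitosis are shown beside that of the replication helicase gene Mcm5, because the elements just named differ between these classes. The windows run from 250 bases before to 50 after the gene start, from RefSeq (build GRCm38.p6), 5′ to 3′ along the gene. Capitals mark the motif letters found on either strand, which were TTTGAA or TTCGAA for the CHR, CCAAT for the CCAAT box, and TTTCGCGC, TTTGGCGC, TTTCCCGC or TTTGCCGC for E2F. The windows are chr10:69352863-69353162 (minus strand) for Cdk1, chr13:100786437-100786736 (minus) for Ccnb1, chr9:70421505-70421804 (minus) for Ccnb2, chr7:122159185-122159484 (plus) for Plk1, chr4:118437294-118437593 (minus) for Cdc20 and chr8:75109259-75109558 (plus) for Mcm5.
Cdk1: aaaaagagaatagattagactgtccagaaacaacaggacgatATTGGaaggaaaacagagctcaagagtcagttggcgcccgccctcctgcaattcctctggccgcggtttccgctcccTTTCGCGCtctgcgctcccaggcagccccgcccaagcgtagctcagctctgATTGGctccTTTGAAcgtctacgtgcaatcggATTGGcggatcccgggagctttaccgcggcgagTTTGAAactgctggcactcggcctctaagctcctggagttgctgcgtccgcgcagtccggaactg
Ccnb1: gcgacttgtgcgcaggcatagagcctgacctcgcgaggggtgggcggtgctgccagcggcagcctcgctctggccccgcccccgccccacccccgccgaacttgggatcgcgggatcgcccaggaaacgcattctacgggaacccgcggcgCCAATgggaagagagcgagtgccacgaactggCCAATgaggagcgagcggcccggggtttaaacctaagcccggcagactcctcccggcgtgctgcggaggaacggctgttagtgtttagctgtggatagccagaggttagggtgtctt
Ccnb2: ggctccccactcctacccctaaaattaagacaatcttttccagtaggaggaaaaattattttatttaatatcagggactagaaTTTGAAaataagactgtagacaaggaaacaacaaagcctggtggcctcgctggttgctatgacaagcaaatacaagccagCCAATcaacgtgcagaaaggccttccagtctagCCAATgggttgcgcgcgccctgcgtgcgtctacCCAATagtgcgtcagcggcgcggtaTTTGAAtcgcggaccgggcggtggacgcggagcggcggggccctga
Plk1: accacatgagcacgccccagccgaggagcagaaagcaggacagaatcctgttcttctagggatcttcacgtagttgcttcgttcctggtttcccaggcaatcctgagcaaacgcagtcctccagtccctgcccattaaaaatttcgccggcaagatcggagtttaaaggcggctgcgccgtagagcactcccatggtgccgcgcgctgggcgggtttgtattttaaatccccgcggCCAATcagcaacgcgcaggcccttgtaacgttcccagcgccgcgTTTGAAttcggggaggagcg
Cdc20: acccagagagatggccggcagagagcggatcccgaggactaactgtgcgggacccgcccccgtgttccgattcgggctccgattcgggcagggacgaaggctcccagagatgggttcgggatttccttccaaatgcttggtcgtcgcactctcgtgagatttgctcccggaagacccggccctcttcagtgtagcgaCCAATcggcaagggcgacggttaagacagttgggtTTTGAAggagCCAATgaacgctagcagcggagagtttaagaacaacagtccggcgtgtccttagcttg
Mcm5: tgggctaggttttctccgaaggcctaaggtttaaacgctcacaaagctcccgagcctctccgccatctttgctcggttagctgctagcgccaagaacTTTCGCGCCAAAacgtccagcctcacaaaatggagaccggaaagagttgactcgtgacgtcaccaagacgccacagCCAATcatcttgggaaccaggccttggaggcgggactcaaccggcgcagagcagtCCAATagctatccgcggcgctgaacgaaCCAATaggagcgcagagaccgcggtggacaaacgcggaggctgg
The Cdk1 window holds 2 CHR matches, 3 CCAAT boxes and 1 E2F match, that of Ccnb2 2 CHR matches and 3 CCAAT boxes, that of Cdc20 1 CHR match and 2 CCAAT boxes, and that of Plk1 1 of each. The Ccnb1 window holds 2 CCAAT boxes and no CHR letters. In the Mcm5 window there are 3 CCAAT boxes and 2 E2F matches, which share bases, and no CHR letters. A match is a description of the letters and not a binding site.

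Across the list, 30 of the 36 members had a RefSeq window; Ccna2, Foxm1, Aurkb, Spc24, Kif20a and Tpx2 had none. CHR letters were present in 22 of these 30 members (73.3%), in 6 of 37 replication genes with a window (16.2%) and in 21.7% of all 27025 genes with one. CHR and CCAAT letters stood together in 1 window in 19 members (63.3%), 5 replication genes (13.5%) and 8.61% of all genes. E2F letters showed the opposite order, in 1 member, Cdk1 (3.33%), against 15 replication genes (40.5%) and 2.61% of all genes. CCAAT boxes alone hardly separated the lists, with 70.0% of members and 67.6% of replication genes, against 41.1% of all genes.

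The values are FPKM, fragments scaled by the length of the gene model and the size of the library, as deposited. Libraries held 13187531 to 15962303 reads, with 22681 to 23705 genes read in each. Krt20, the targeted gene, was read at 28.2, 35.6 and 47.0 FPKM in the cKO IR libraries, against 84.0, 64.9 and 59.9 FPKM in the WT IR libraries, and was at most 0.157 FPKM in sham libraries of either genotype. The cKO IR libraries were therefore below every WT IR library but far from empty (log2 difference −0.93, SE 0.32, limma adjusted p = 0.296). The proximal tubule markers fixed for this purpose (6 of 6) were abundant in every library, summing to 328 to 576 FPKM in cKO IR, 588 to 1299 in WT IR, 2384 to 3192 in cKO sham and 2742 to 3301 in WT sham. The labels' extraction text names retina, yet the retina marker Rcvrn was at 0 in all 12 libraries and no retina marker passed 0.449 FPKM.

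Mitosis genes were rare RNAs in these whole kidneys. Their mean over the 12 libraries ran from 0.140 FPKM for Cenpf to 7.05 FPKM for Spc25, with a median of 0.577, and 35 of 36 members averaged under 2 FPKM. A member had 0 to 511 reads in a library, with a median of 37, and 14 members fell under 10 reads in at least 1 library. Such counts limit the precision of each single gene. For a gene model of 1 kb, 3 reads, the level that a library with no read still allows, amounted to 0.176 to 0.226 FPKM by counting error alone. The median member averaged 0.473 FPKM in cKO IR, 0.799 in WT IR, 0.621 FPKM in cKO sham and 0.329 FPKM in WT sham. So the WT sham kidneys had the lowest mitotic RNA of the 4 groups, the cKO sham kidneys already stood above them without injury, and WT IR had the highest mean for the median member. The summed FPKM of the 36 was 28.7 to 51.9 in WT IR and 29.5 to 38.6 in cKO sham, so the libraries of these groups overlapped.

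**Figure D1:**
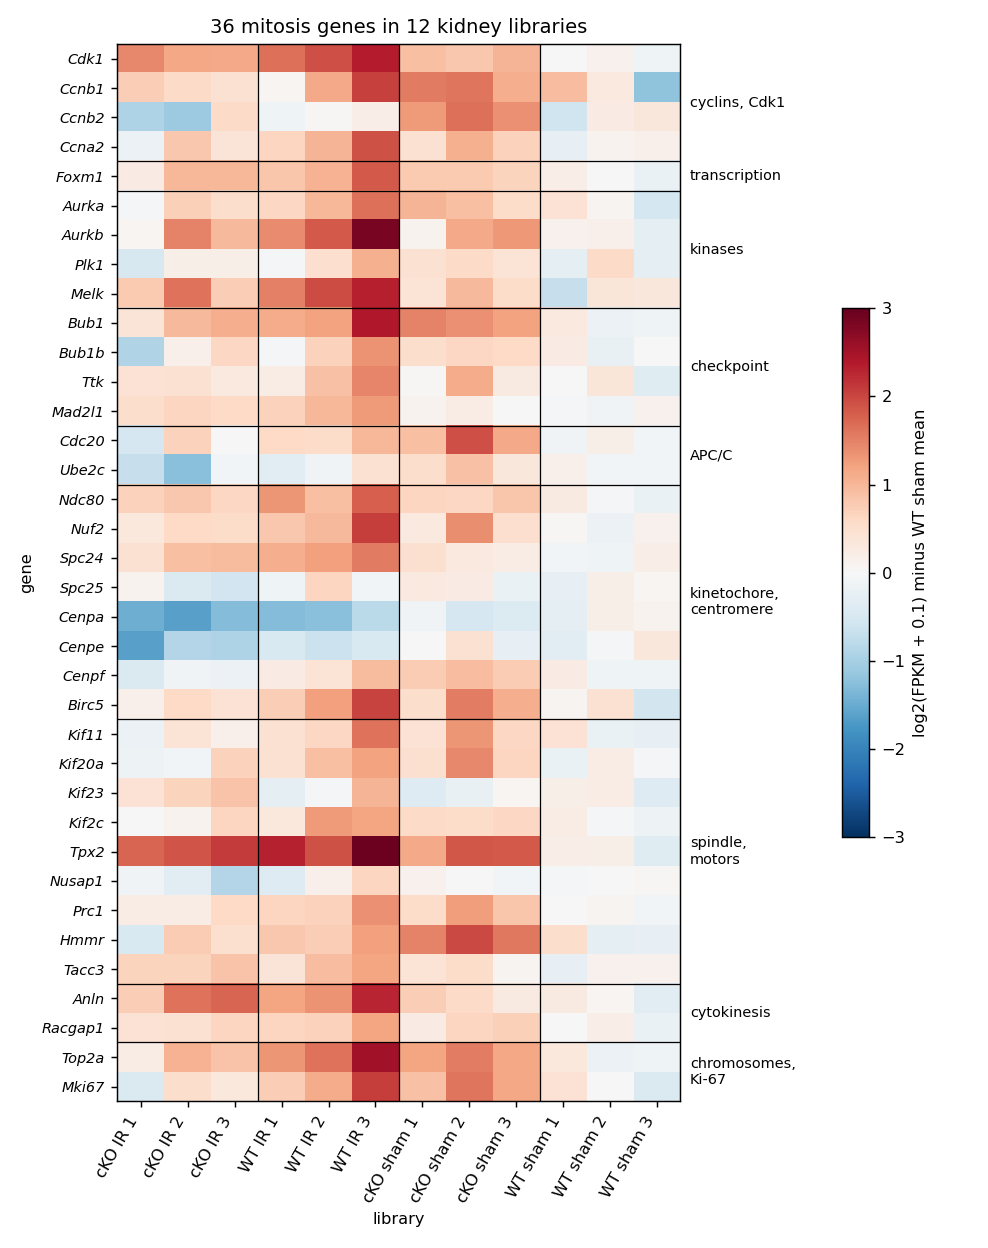
Level of each of the 36 mitosis genes (rows, grouped by role) in each of the 12 libraries (columns), as log2(FPKM + 0.1) minus the mean of the WT sham libraries (color). Red fills most of WT IR and cKO sham, WT IR 3 is the reddest column, and Cenpa is blue in all 6 IR libraries.

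Tests were run in limma on log2(FPKM + 0.1) for the 20512 genes that averaged 0.1 FPKM or more, all 36 members among them, and a gene was called at a Benjamini-Hochberg adjusted p under 0.05 over all of them. On this scale a difference understates the change of genes with low FPKM. The 36 members were read in the same libraries and can move together. Counts of members in a direction are therefore not independent observations, here and in the comparisons below. In cKO kidneys, IR raised none of the 36 and lowered 8 (Ccnb2, Cdc20, Ube2c, Cenpa, Cenpe, Cenpf, Hmmr and Mki67), while 18.9% of all tested genes were called higher and 17.5% lower. The share of members called lower was thus close to that of all genes, whereas the absence of higher calls was not. The median member differed by −0.44, against −0.03 for all genes, and 26 members lay below 0. In limma, 12 members had an unadjusted p under 0.05 in either direction, where 44.9% of all genes did, and voom on the recovered reads called 2 higher, Mad2l1 and Kif23. In 14 members all cKO IR libraries were below all cKO sham libraries, and in 4 they were all above (Cdk1, Mad2l1, Kif23 and Tacc3), against 24.6% and 24.4% of all genes. The count of 8 became 5 without cKO sham 2. Ccnb2, Cdc20, Cenpa, Cenpe and Hmmr passed in each of the 12 fits that left out 1 library, and Mki67 passed in 3 of them. Fitted on the cKO libraries alone, Cdc20 (adjusted p = 0.0656) and Mki67 (adjusted p = 0.0560) missed the threshold, while Ccnb1 passed as lower (adjusted p = 0.0398) and Kif23 as higher (adjusted p = 0.0333).

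In WT kidneys the same injury raised 19 of the 36 mitosis genes and lowered 1, Cenpa, with 16 not passing; among all tested genes 15.3% were called higher and 14.1% lower. The median member differed by 0.93 on the log2 scale, against −0.03 for all tested genes, and 33 members lay above 0. An unadjusted p under 0.05 was reached by 25 members and by 40.2% of all genes. In 24 members every WT IR library was above every WT sham library, and in 2 every one was below, where 21.2% and 22.0% of all genes did so. The increases that passed ran from 0.83 (Tacc3) to 2.38 (Tpx2).

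**Figure D2:**
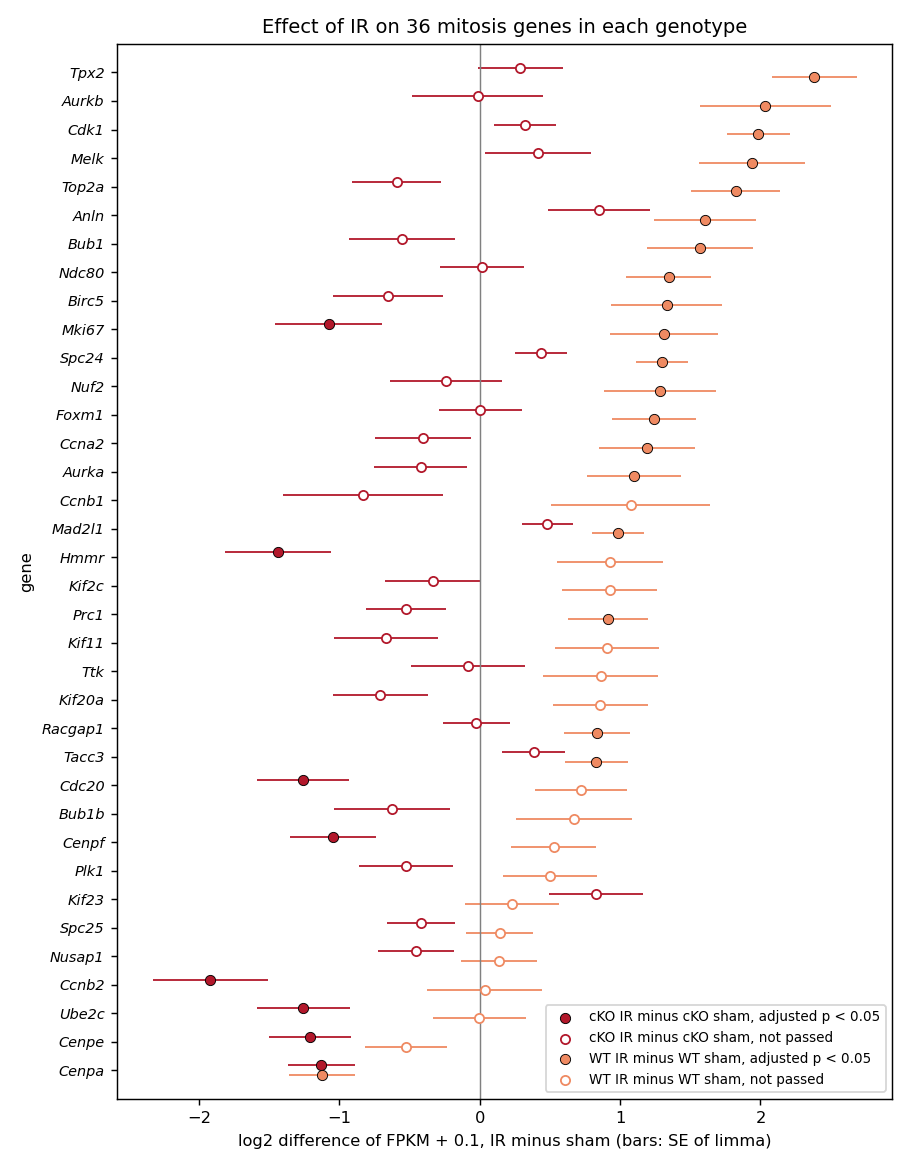
Effect of IR on each of the 36 mitosis genes (rows, ordered by the WT effect), as the log2 difference of FPKM + 0.1 between IR and sham libraries, in cKO (dark red) and WT (orange) kidneys; bars are standard errors from limma and filled points passed at an adjusted p under 0.05. The cKO points lie to the left of the WT points for every gene but Kif23, and those of Cenpa nearly coincide at −1.13 and −1.12.

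Cdk1, the kinase that starts mitosis, had 0.736, 0.589 and 0.577 FPKM in cKO IR, 0.882, 1.09 and 1.49 FPKM in WT IR, 0.482, 0.446 and 0.528 FPKM in cKO sham and 0.210, 0.238 and 0.183 FPKM in WT sham. The 4 groups did not overlap, with WT IR at the top and WT sham at the bottom. The log2 difference after IR was 0.32 in cKO (95% interval −0.17 to 0.81, adjusted p = 0.294) and 1.99 in WT (1.49 to 2.48, adjusted p = 0.000162), both by limma. All 6 cKO libraries thus lay between the WT IR and WT sham groups.

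The B-type cyclins, which activate CDK1, did not share this pattern. Ccnb2 had 0.245, 0.211 and 0.888 FPKM in cKO IR, 0.499, 0.576 and 0.660 in WT IR, 1.51, 1.98 and 1.61 in cKO sham and 0.339, 0.678 and 0.739 in WT sham. All cKO sham libraries were above the 9 others, and WT IR lay within the range of WT sham. The difference after IR was −1.92 in cKO (SE 0.41, adjusted p = 0.00400) and 0.03 in WT (SE 0.41, adjusted p = 0.969). Ccnb1 had 0.282, 0.245 and 0.215 FPKM in cKO IR, 0.139, 0.402 and 0.846 in WT IR, 0.580, 0.604 and 0.390 in cKO sham, and 0.334 and 0.181 in WT sham 1 and 2, with no read in WT sham 3. Its cKO IR libraries were all below the cKO sham libraries, and its WT groups overlapped; neither effect passed (cKO −0.83, SE 0.57, adjusted p = 0.288; WT 1.07, SE 0.57, adjusted p = 0.187). Both cyclins have pseudogenes in the table, Ccnb1-ps with a mean of 0.0991 FPKM and Ccnb2-ps with 0.746 FPKM, so their reads could be split between the copies. Ccnb2-ps averaged 0.574 FPKM in cKO IR, 0.824 in WT IR, 0.719 FPKM in cKO sham and 0.867 FPKM in WT sham, without the high level of Ccnb2 in cKO sham. Ccna2, the A-type cyclin of S and G2 phase, had a difference of −0.40 in cKO (SE 0.34, adjusted p = 0.396) and rose in WT by 1.19 (SE 0.34, adjusted p = 0.0230).

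**Figure D3:**
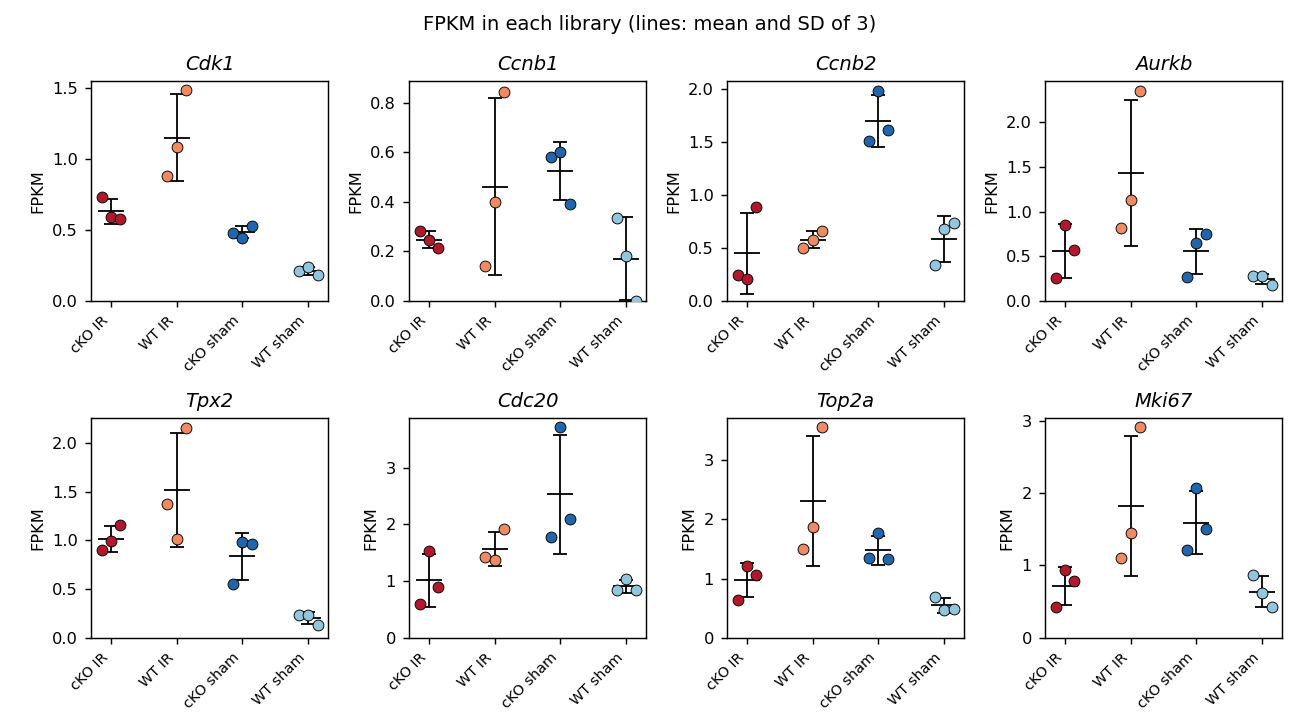
FPKM of 8 mitosis genes in each library, by group; points are libraries, horizontal lines the means and bars the SD of 3 libraries. Cdk1, Tpx2, Aurkb, Top2a and Mki67 had their highest mean in WT IR, whereas Ccnb1, Ccnb2 and Cdc20 had theirs in cKO sham.

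Foxm1, the transcription factor that activates G2 and M phase genes, averaged 0.647 ± 0.203 FPKM in cKO IR and 0.624 ± 0.0347 in cKO sham, against 0.975 ± 0.416 in WT IR and 0.337 ± 0.0619 in WT sham (SD, n = 3 each). The cKO difference was 0.01 (SE 0.30), and it rose in WT (1.24, SE 0.30, adjusted p = 0.00996, limma). Of the mitotic kinases, Aurkb, the catalytic subunit of the chromosomal passenger complex, had 0.255, 0.856 and 0.571 FPKM in cKO IR, 0.818, 1.13 and 2.35 in WT IR, 0.269, 0.654 and 0.745 in cKO sham and 0.277, 0.282 and 0.179 in WT sham. Its cKO groups overlapped, and its WT IR libraries were all above WT sham. The cKO difference was −0.02 (SE 0.47), and the WT difference of 2.04 (SE 0.47) passed at an adjusted p of 0.00796. Aurka, the spindle pole kinase, rose in WT by 1.10 (SE 0.33), and Melk, a kinase of dividing cells, by 1.94 (SE 0.38); their cKO differences were −0.42 and 0.41. Plk1, the polo-like kinase of mitotic entry and exit, passed in neither genotype, at −0.53 in cKO and 0.50 in WT (SE 0.33 each).

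Among the spindle checkpoint genes, Bub1, a checkpoint kinase at kinetochores, had 0.115, 0.222 and 0.252 FPKM in cKO IR and 0.364, 0.331 and 0.283 in cKO sham, against 0.256, 0.280 and 0.772 in WT IR and 0.102, 0.0476 and 0.0519 in WT sham. The cKO IR libraries were all below cKO sham, and the WT IR libraries were all above WT sham. The cKO difference of −0.55 did not pass (adjusted p = 0.290), and the WT increase of 1.57 did (SE 0.38, adjusted p = 0.0100). Mad2l1, which inhibits CDC20 at unattached kinetochores, lay higher after IR in both genotypes. It had 0.888, 0.971 and 0.934 FPKM in cKO IR against 0.630, 0.697 and 0.589 in cKO sham, and averaged 1.27 ± 0.269 in WT IR against 0.583 ± 0.0576 in WT sham. Neither pair of groups overlapped, and it missed the threshold in cKO (0.48, SE 0.18, adjusted p = 0.0620) and passed in WT (0.99, SE 0.18, adjusted p = 0.00266). Bub1b and Ttk, of the same checkpoint, passed in neither genotype, at −0.63 and −0.08 in cKO and 0.67 and 0.86 in WT.

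The APC/C members were both lower after IR in cKO and did not pass in WT. Cdc20, the activator that triggers anaphase, had 0.603, 1.52 and 0.901 FPKM in cKO IR, 1.42, 1.38 and 1.91 in WT IR, 1.77, 3.72 and 2.09 in cKO sham and 0.833, 1.04 and 0.848 in WT sham. All cKO IR libraries were below all cKO sham libraries, and all WT IR libraries were above all WT sham libraries. It fell by 1.26 in cKO (SE 0.32, adjusted p = 0.0111), and the WT difference was 0.72 (SE 0.32, adjusted p = 0.122). With only the groups compared in the fit, the cKO call was lost, as given above, and the WT increase passed (adjusted p = 0.0497). Ube2c, the ubiquitin-conjugating enzyme of the APC/C, averaged 0.214 ± 0.126 FPKM in cKO IR against 0.618 ± 0.136 in cKO sham (−1.26, SE 0.33, adjusted p = 0.0126, limma), and its WT difference was −0.00. The Ube2c call was lost without cKO sham 2 (adjusted p = 0.0512). The table's Cdc20 model overlaps Elovl1, a gene on the opposite strand with a mean of 38.7 FPKM, by 53 bases, and whether counting used strand is not given in the sources used here. Ccna2, Kif20a, Prc1 and Tacc3 also overlap a more abundant gene on the other strand.

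At the kinetochore, 3 of the 4 subunits of the NDC80 complex did not pass in cKO and rose in WT, namely Ndc80 (0.02 in cKO and 1.35 in WT, SE 0.30), Nuf2 (−0.24 and 1.29, SE 0.40) and Spc24 (0.44 and 1.30, SE 0.18). Spc25, the other subunit, had 7.44, 5.11 and 4.59 FPKM in cKO IR, 6.35, 10.9 and 6.55 in WT IR, 8.50, 8.20 and 6.07 in cKO sham and 5.83, 7.86 and 7.29 in WT sham. Its 4 groups overlapped, and its level per length exceeded that of the other subunits in each of the 12 libraries. Cenpa, the histone H3 variant that marks centromeres, had 0.246, 0.210 and 0.287 FPKM in cKO IR against 0.789, 0.575 and 0.620 in cKO sham, and 0.291, 0.301 and 0.448 in WT IR against 0.682, 0.992 and 0.940 in WT sham. The IR libraries were below the sham libraries without overlap in both genotypes. Cenpa fell by 1.13 in cKO (SE 0.24, adjusted p = 0.00354) and by 1.12 in WT (SE 0.24, adjusted p = 0.00516), and it was the 1 member to pass in the same direction in both.

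Cenpe, a kinetochore motor, averaged 0.209 ± 0.0806 FPKM in cKO IR against 0.612 ± 0.182 in cKO sham (−1.21, adjusted p = 0.00762) and 0.362 ± 0.0346 in WT IR against 0.576 ± 0.150 in WT sham (−0.53, adjusted p = 0.208; SD, n = 3 each, limma). Cenpf, a large kinetochore-associated protein, fell in cKO to 0.0610 ± 0.0182 FPKM in IR, against 0.232 ± 0.0234 in sham (−1.05, adjusted p = 0.0200), while its WT difference was 0.53 (adjusted p = 0.227). The Cenpf call was lost without cKO sham 2 or without cKO IR 1. Birc5, survivin of the chromosomal passenger complex, had −0.65 in cKO (SE 0.39, adjusted p = 0.227) and rose in WT by 1.33 (SE 0.39, adjusted p = 0.0265).

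Tpx2, a spindle assembly factor that activates Aurora A, had the largest WT increase of the 36. It had 0.897, 0.995 and 1.16 FPKM in cKO IR, 1.37, 1.01 and 2.16 in WT IR, 0.551, 0.986 and 0.968 in cKO sham and 0.238, 0.237 and 0.129 in WT sham. The cKO groups overlapped, and WT sham was below all 9 other libraries. The difference was 0.29 in cKO (SE 0.30, adjusted p = 0.499) and 2.38 in WT (SE 0.30, adjusted p = 0.000343). Hmmr, a spindle-associated hyaluronan receptor, had 0.0461, 0.238 and 0.179 FPKM in cKO IR, 0.249, 0.237 and 0.372 in WT IR, 0.462, 0.697 and 0.505 in cKO sham and 0.191, 0.0637 and 0.0694 in WT sham. The cKO sham libraries stood above all others. Hmmr fell in cKO by 1.43 (SE 0.38, adjusted p = 0.0123), with 0.93 in WT (adjusted p = 0.0902).

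Other spindle genes divided between small WT increases and no call. Prc1, which bundles the central spindle, and Tacc3, which stabilizes spindle fibers, had −0.53 and 0.39 in cKO and rose in WT by 0.91 (adjusted p = 0.0339) and 0.83 (adjusted p = 0.0179). The motors Kif11, Kif20a and Kif2c had −0.67, −0.71 and −0.33 in cKO and 0.91, 0.86 and 0.93 in WT, none of which passed (WT adjusted p of 0.0915, 0.0807 and 0.0615). Nusap1, a microtubule binder, had −0.45 in cKO and 0.14 in WT. Kif23, the motor of centralspindlin that acts in cytokinesis, was the 1 member with its highest mean in cKO IR: 0.824, 0.982 and 1.14 FPKM there, 0.461, 0.558 and 1.30 in WT IR, 0.426, 0.488 and 0.616 in cKO sham and 0.665, 0.701 and 0.420 in WT sham. Its cKO groups did not overlap (0.83, SE 0.33, adjusted p = 0.0760), and its WT groups did (0.23, adjusted p = 0.647).

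Both cytokinesis genes rose in WT. Anln, anillin of the contractile ring, averaged 0.776 ± 0.298 FPKM in cKO IR against 0.368 ± 0.0755 in cKO sham, and 0.942 ± 0.461 in WT IR against 0.227 ± 0.0645 in WT sham (SD, n = 3 each). It did not pass in cKO (0.85, SE 0.36, adjusted p = 0.0912) and passed in WT (1.61, SE 0.36, adjusted p = 0.00714, limma). Racgap1, the partner of KIF23 in centralspindlin, had −0.02 in cKO and rose by 0.83 in WT (adjusted p = 0.0220).

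Top2a, the topoisomerase that untangles sister chromatids, had 0.646, 1.20 and 1.06 FPKM in cKO IR, 1.49, 1.87 and 3.56 in WT IR, 1.36, 1.76 and 1.32 in cKO sham and 0.690, 0.461 and 0.485 in WT sham. The cKO IR libraries were all below cKO sham, and WT IR was all above WT sham. Its difference was −0.59 in cKO (SE 0.32, adjusted p = 0.177) and 1.82 in WT (SE 0.32, adjusted p = 0.00186). Mki67, the proliferation marker Ki-67 that coats mitotic chromosomes, had 0.429, 0.938 and 0.785 FPKM in cKO IR, 1.10, 1.45 and 2.92 in WT IR, 1.21, 2.07 and 1.50 in cKO sham and 0.861, 0.619 and 0.427 in WT sham. Again neither pair of groups overlapped, with cKO IR below its sham group and WT IR above it. Mki67 was the 1 member called in opposite directions, at −1.08 in cKO (SE 0.38, adjusted p = 0.0480) and 1.31 in WT (SE 0.38, adjusted p = 0.0249). The WT call was lost without WT IR 3, WT sham 2 or WT sham 3, and the cKO call in 9 of the 12 fits without 1 library.

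The number of WT calls depended in part on 1 library. The median member stayed at 0.73 to 1.16 over the 12 fits that left out 1 library, against 0.93 with all libraries. A fit with fewer libraries can also call fewer genes, and this part was not tested separately. Without WT IR 1, 35 members kept their result and 1 was added to the calls. Without WT IR 2, all 36 kept theirs. Of the 3 WT IR libraries, WT IR 3 was the highest in 34 of 36 members, and in 27 it was the highest of all 12. Without it, 11 members passed as higher in place of 19, which were Cdk1, Foxm1, Aurkb, Melk, Bub1, Mad2l1, Ndc80, Spc24, Tpx2, Anln and Top2a; the same 11 passed in each of the 12 fits that left out 1 library. Calls of Ccna2, Aurka, Nuf2, Birc5, Prc1, Tacc3, Racgap1 and Mki67 were lost without it, and each of these was also lost without at least 1 WT sham library, which left 13, 14 and 13 members passing without WT sham 1, 2 and 3. WT IR 3 also had the most neutrophil RNA (3 of 4 markers tested and higher after IR in both genotypes): the 4 markers summed to 14.8 to 19.8 FPKM in cKO IR, 9.10 to 42.5 in WT IR, 1.70 to 2.43 in cKO sham and 1.34 to 1.76 in WT sham, with WT IR 3 at the top. Of these, Ly6g was at 0 in 5 libraries and Cxcr2 in 2. Its 3 stroma markers summed to 85.1 FPKM, against 38.6 and 22.6 in the other WT IR libraries; they summed to 18.5, 27.8 and 101 FPKM in cKO IR 1, 2 and 3. The 3 endothelium markers summed to 37.7 FPKM in WT IR 3, against 21.9 and 10.8 in WT IR 1 and 2, and the 6 macrophage markers to 41.2 FPKM, against 38.1 and 20.5. WT IR 3 was thus also the highest WT IR library for stroma, endothelium and macrophage markers. In cKO IR 1, 2 and 3 the endothelium markers summed to 16.5, 16.5 and 40.4 FPKM, and the macrophage markers to 22.7, 29.2 and 42.5 FPKM. By these sums cKO IR 3 was above WT IR 3 for all 3 of these lists, and below it for neutrophil markers. As a median of log2 values over the WT sham mean, macrophage markers were at 1.04 in WT IR 3 and 0.62 in cKO IR 3. Endothelium markers were at 0.50 and 0.53, and stroma markers at 1.08 and 1.56. The mitosis median was 1.43 in WT IR 3 and 0.59 in cKO IR 3. The part of these cells in the result was not tested. In whole kidney RNA, a change in the number of cells of a type and a change of RNA per cell cannot be told apart.

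Without injury, the comparison of cKO with WT kidneys asked how kidneys with the Krt20 deletion differed at rest. Only Tpx2 passed, higher in cKO sham (1.62, SE 0.30, adjusted p = 0.0470, limma), where 0.439% of all tested genes were called higher and 0.141% lower. This call was lost in 9 of the 12 fits that left out 1 library, among them each fit without a WT sham library (highest adjusted p = 0.196). Of the 36 members, 34 lay above 0, with a median of 0.74 against −0.00 for all genes. An unadjusted p under 0.05 in limma was reached by 17 members and by 9.93% of all genes. In 25 members every cKO sham library was above every WT sham library and in 0 every one was below, against 10.1% and 10.7% of all genes. Next to Tpx2 came Hmmr (1.69, SE 0.38, adjusted p = 0.0947), Cdk1 (0.92, SE 0.22, adjusted p = 0.135), Top2a (1.30, SE 0.32, adjusted p = 0.136), Cdc20 (1.32, SE 0.32, adjusted p = 0.140), Bub1 (1.36, SE 0.38, adjusted p = 0.204) and Ccnb2 (1.44, SE 0.41, adjusted p = 0.217). The members lying below 0 were Cenpa (−0.35) and Kif23 (−0.17). Stroma markers moved with this difference, since their sum was 27.7 to 40.3 FPKM in cKO sham and 20.5 to 24.3 in WT sham, though none of the 3 passed. Macrophage markers (6) summed to 27.6 to 41.7 FPKM in cKO sham and 24.7 to 32.8 in WT sham, and lymphocyte markers (4) to 0.680 to 1.08 FPKM in cKO sham and 1.38 to 1.69 in WT sham, with none called. Red cell markers (3) summed to 179 to 248 FPKM in cKO sham and 256 to 840 in WT sham, without overlap, with a median difference of −0.93 and none called. The mitochondrial share of reads was 8.11 to 8.47% in cKO sham and 9.82 to 10.4% in WT sham. Their part in the result was not tested.

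After injury, none of the 36 members passed between cKO IR and WT IR in limma or in voom (0 higher and 0 lower, against 0.00488% and 0.0195% of all genes), and 9 had an unadjusted p under 0.05, where 11.8% of all genes did. All but Kif23 (0.42) lay below 0, with a median of −0.65 against 0.01 for all genes. In 14 members every cKO IR library was below every WT IR library and in 0 every one was above, against 6.22% and 7.71% of all genes. Members with the smallest p-values were Top2a (−1.12, 95% interval −1.82 to −0.42, adjusted p = 0.243), Cdk1 (−0.75, −1.24 to −0.26, adjusted p = 0.253) and Mki67 (−1.18, −2.02 to −0.33, adjusted p = 0.286). Without WT IR 3 the median was −0.41. Some markers of tubule injury also differed between these groups. All 6 proximal tubule markers lay lower in cKO IR (median −0.70, each with an unadjusted p under 0.05 in limma, none called), and their sums of 328 to 576 FPKM in cKO IR and 588 to 1299 in WT IR did not overlap. Of the 5 injured tubule markers, 2 were higher in cKO IR without overlap and 1, Krt20 itself, was lower without overlap. Vcam1 and Sox9 overlapped, and 0 of the 5 were called. The 2 higher were Havcr1, with 1101 ± 104 FPKM in cKO IR and 688 ± 176 in WT IR, and Lcn2. Lcn2 averaged 149 ± 57.9 FPKM in cKO IR and 69.9 ± 18.7 in WT IR (SD, n = 3 each). Their part in the result was not tested.

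Whether IR acted differently on the members in cKO and in WT was also tested directly, as the interaction (the cKO effect minus the WT effect). No member passed in limma (0 higher and 0 lower, against 0.146% and 0.288% of all genes). Of the 36, 35 lay below 0, with a median of −1.48 against 0.02 for all genes. An unadjusted p under 0.05 in limma was reached by 26 members and by 12.1% of all genes. As the members share libraries, these counts do not replace a test. Top2a came closest at −2.41 (95% interval −3.40 to −1.42, adjusted p = 0.0528), then Cdk1 at −1.66 (−2.36 to −0.97, adjusted p = 0.0540) and Tpx2 at −2.09 (−3.05 to −1.14, adjusted p = 0.0744). With voom, Top2a (adjusted p = 0.0463) and Cenpf (adjusted p = 0.0321) passed as lower. In 6 members every cKO IR library was below every cKO sham library while every WT IR library was above every WT sham library, a pattern shared by 0.405% of all tested genes. This contrast draws on all 4 groups, so the higher level of cKO sham and the lower level of cKO IR both enter it, and the comparisons above share those libraries.

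The replication genes gave the measure against which mitosis was read. After IR, 33 of 46 rose in cKO and 45 of 46 in WT. The median difference was 1.07 in cKO and 1.52 in WT for replication genes, and −0.44 in cKO and 0.93 in WT for mitosis genes. The helicase subunit Mcm5 averaged 10.3 ± 1.80 FPKM in cKO IR against 2.33 ± 0.280 in cKO sham, and 15.6 ± 3.21 in WT IR against 1.21 ± 0.244 in WT sham (SD, n = 3 each). Cdt1, which loads that helicase, rose by 1.92 in cKO and 2.47 in WT. In the same libraries the mitotic kinase gene Cdk1 was 0.32 and 1.99 higher.

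Each library was also placed by the median of each list relative to the WT sham mean. The mitosis median was 0.12, 0.61 and 0.59 in cKO IR, 0.63, 0.92 and 1.43 in WT IR, 0.52, 0.92 and 0.64 in cKO sham and 0.06, 0.09 and −0.12 in WT sham. The replication median was 1.10, 1.36 and 1.19 in cKO IR, 1.43, 1.33 and 1.84 in WT IR, 0.22, 0.31 and 0.12 in cKO sham and −0.01, 0.03 and −0.04 in WT sham. By the 36 mitosis genes, then, cKO IR and cKO sham overlapped, and by replication genes they were far apart. Subtracting the replication from the mitosis median left −0.98, −0.76 and −0.60 in cKO IR, −0.80, −0.41 and −0.41 in WT IR, 0.30, 0.61 and 0.51 in cKO sham and 0.07, 0.06 and −0.08 in WT sham. At 24 h, then, the median of the 36 was behind that of the replication genes in all 6 IR libraries and ahead of it in all 3 cKO sham libraries, relative to WT sham. The 36 were rarer, summing to 19.9 to 22.6 FPKM in WT sham against 115 to 118 for replication genes. The added 0.1 FPKM thus shrinks their differences more, and the size of the gap depends on it. Over the alternative settings, the WT median after IR was 0.34 to 1.25 for mitosis genes and 1.03 to 1.67 for replication genes. In cKO it was −0.54 to −0.20 and 0.55 to 1.22.

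**Figure D4:**
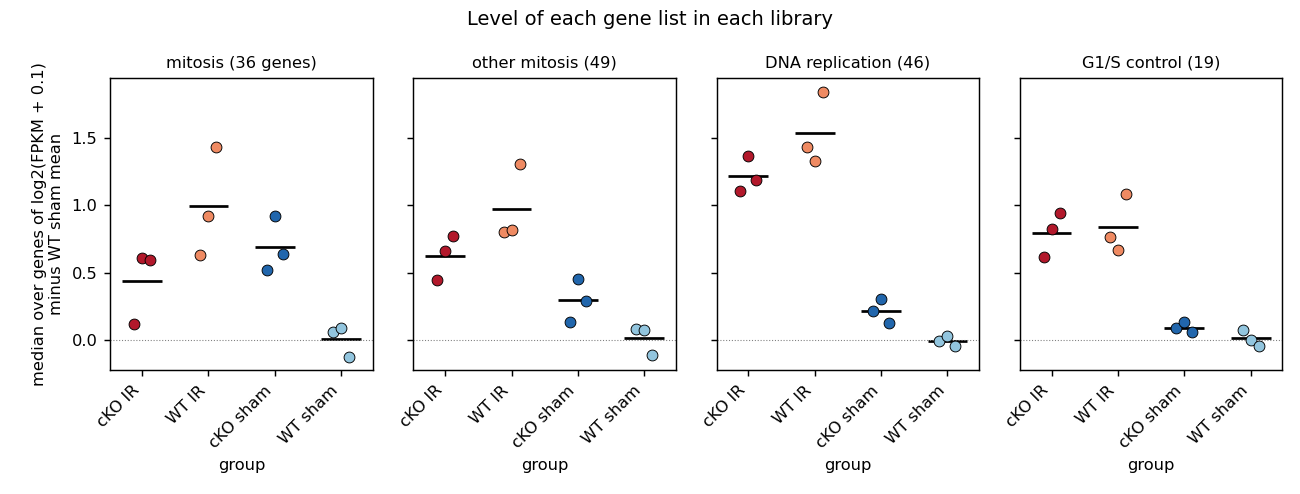
Level of 4 gene lists in each library by group, as the median over the genes of a list of log2(FPKM + 0.1) minus the WT sham mean; points are libraries and lines group means. Replication genes were at 1.10 or more in all 6 IR libraries, while mitosis genes in cKO IR (0.12 to 0.61) overlapped those in cKO sham (0.52 to 0.92).

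A second list of 49 mitosis genes, 45 of them tested, was followed as well. After IR, 7 rose and 3 fell in cKO (median 0.21), which is 15.6% and 6.67% of those tested, where 18.9% of all genes were called higher and 17.5% lower. In WT 28 rose and 2 fell (median 0.95), or 62.2% and 4.44%, where 15.3% and 14.1% of all genes did. The share that rose in cKO was thus near that of all genes. The same 7 rose in WT too, among them Cenph, of the inner kinetochore (1.82 in cKO and 2.67 in WT), Cks1b, a CDK-binding subunit (1.87 and 1.85), Smc2, of condensin (0.93 and 1.69), and Zwint, of the outer kinetochore (1.05 and 0.85). Kif4, a chromosome-bound motor, had −0.36 in cKO (adjusted p = 0.421) and 1.79 in WT (adjusted p = 0.00228), as many of the 36 did. The cKO sham against WT sham median was 0.33 with none called, against 0.74 for the 36. By library, the median of this second list was 0.13, 0.46 and 0.29 in cKO sham 1, 2 and 3. That of the replication genes was 0.22, 0.31 and 0.12 there. The second list was thus behind the replication genes in cKO sham 1 and ahead in cKO sham 2 and 3. In cKO IR 1, 2 and 3 the median of the second list was 0.45, 0.66 and 0.77. Unlike for the 36, these lay above cKO sham, except that cKO sham 2 was just above cKO IR 1.

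Of 19 genes that control the start of S phase, 10 rose and 1 fell in cKO (median 0.71) and 14 rose in WT (median 0.91). These are 52.6% and 5.26% in cKO and 73.7% higher in WT, against the 18.9%, 17.5% and 15.3% of all genes, and 10 rose in both genotypes (52.6%, against 12.4% of all genes). The growth factor-induced Myc rose by 4.32 in cKO and 2.83 in WT, and E2f1, the S phase transcription factor, by 0.71 and 1.96. Of 22 genes that restrain the cycle, 21 of them tested, 11 rose and 3 fell in cKO (median 0.36), and 9 rose and 2 fell in WT (median 0.63). The shares that rose were 52.4% in cKO and 42.9% in WT, and 7 rose in both (33.3%). The shares that fell, 14.3% in cKO and 9.52% in WT, were below the 17.5% and 14.1% of all genes. Among these, Sfn, a 14-3-3 protein that sequesters mitotic cyclin-CDK complexes, had 40.4 ± 7.21 FPKM in cKO IR against 2.62 ± 0.107 in cKO sham, and 28.9 ± 5.01 in WT IR against 3.66 ± 0.328 in WT sham (SD, n = 3 each; 3.88 and 2.93). Chek1, the kinase that delays mitosis while DNA is damaged, rose by 1.96 in cKO and 3.38 in WT, and Pkmyt1, which phosphorylates and inhibits CDK1, by 1.43 and 2.04. Trp53, the p53 gene, rose by 1.15 and 1.19.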

How the data were processed

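RNA of 12 kidney libraries was sequenced by the authors. The submitters' processing notes list HISAT2 2.2.1 as a tool, and mm8 and mm9 as builds; for the counter, annotation, strand setting and filters, nothing is stated. The authors deposited FPKM per gene, with gene lengths. Within a library, FPKM times length moved in equal steps, each worth 1 read, which gave the reads behind each value; the library size in the deposited FPKM was 0.933 to 1.126 times their sum and matched median-of-ratios scaling.

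Log2(FPKM + 0.1) of 20512 genes averaging 0.1 FPKM or more was fitted with 1 mean per group in limma 3.58.1 (R 4.3.3, variances moderated along a trend, degrees of freedom 8 residual and 2.73 prior). In each genotype IR was compared with sham, in each surgery cKO with WT, and the interaction was the fifth contrast. Tests were two-sided, adjusted by Benjamini-Hochberg over all tested genes and called under 0.05. Groups came from the titles. The mitosis genes, the other lists and the settings were chosen with earlier results of these data known. All 36 members are named, with 4 genes per other list by smallest p in WT IR against WT sham, 2 in cKO IR against WT IR, and Krt20; 1 result is not reported here. Promoter windows were matched to RefSeq by symbol. Alternatives changed the pseudocount, the filter, the scaling, the model, the block and the libraries. The script was tested on simulated data.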

Additional observations from a re-analysis of the deposited data

Results flagged for a closer look

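In 6 of the 36 mitosis genes every cKO IR library was below every cKO sham library while every WT IR library was above every WT sham library; 83 of the 20512 genes tested (0.405%) had this order. As the cKO minus the WT effect of IR on the log2 scale, these were Bub1 at −2.12, Cdc20 at −1.98, Kif11 at −1.58, Hmmr at −2.36, Top2a at −2.41 and Mki67 at −2.39. The interaction test in the main limma fit did not pass for any of the 6, with adjusted p of 0.129, 0.103, 0.251, 0.0960, 0.0528 and 0.0964 in that order. For Top2a it passed with voom and with a filter at a mean of 1 FPKM (adjusted p = 0.0463 in each). The pass with the filter is no separate support. Top2a reaches that mean through WT IR (2.31 FPKM) and cKO sham (1.48), the groups whose high level makes its interaction negative. It averaged 0.971 FPKM in cKO IR and 0.546 in WT sham. Mki67 was called in opposite directions in the genotypes, as given above, though both calls were lost in some fits. Outside the members, the interaction passed for Mcm5 of the replication helicase at −1.51 (SE 0.27, adjusted p = 0.0434) and for Rbl1, a pocket protein that restrains E2F, at −0.96 (SE 0.15, adjusted p = 0.0225). The Mcm5 call was lost with pseudocount 1, no filter, plain library totals, voom or the replicate block, and in 9 of the 12 fits that left out 1 library (highest adjusted p = 0.117). The Rbl1 call was lost with the replicate block (adjusted p = 0.0568) and in 7 of those 12 fits (highest adjusted p = 0.0746). Mcm5 nevertheless rose in both genotypes, by 2.08 in cKO and 3.59 in WT, and Rbl1 rose by 0.76 in WT with −0.20 in cKO (adjusted p = 0.165).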

How the results depend on the processing

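Few reads per gene limit these results: 7 of 36 members averaged 1 FPKM or more. A member can reach that mean through the groups where it is high, so fits filtered there give no separate support. No call reversed its direction under any alternative. With a filter at a mean of 1 FPKM, 2 members passed as lower in cKO after IR, 5 as higher and 0 as lower in WT, and 1 as lower in the interaction; with pseudocount 1 as well, 1 was lower in cKO, and 5 higher and 0 lower in WT. With only the groups compared, 1 mitosis gene passed as higher in cKO, and 12 mitosis genes as higher and 0 replication genes as lower in WT; Cdc20 and Mki67 were lost as lower in cKO and Ccnb1 was added. Voom gave 2 higher in cKO and 2 lower in the interaction. Plain library totals, which put the median of all genes in WT at 0.10, against −0.03 as deposited, left 0 replication genes lower in WT. The Tpx2 call in cKO sham fell to 0 calls with pseudocount 1 or 0.5, no filter, plain totals, voom, the replicate block or only the groups compared. Its difference was 0.60 and 0.92 with the pseudocounts, 1.64 with plain totals, 2.001 with voom and 1.62 in the others. A filter at 1 FPKM leaves 0 calls because Tpx2 averages 0.892 FPKM and is not tested there. The Mcm5 interaction fell to 0 with pseudocount 1, no filter, plain totals, voom or the block. The Mki67 call as lower in cKO was lost with pseudocount 0.5, pseudocount 1 with or without the 1 FPKM filter, or no filter. It was also lost with plain totals, the block or only the groups compared (limma adjusted p of 0.0511 to 0.0777 over these settings). In WT, the calls of Aurka, Nuf2, Prc1 and Racgap1 were lost with no filter, that of Aurka also with the block and that of Nuf2 also with pseudocount 1. Median-of-ratios scaling is that of the deposited values and changed nothing.

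Leaving out 1 library at a time gave 0 to 2 mitosis genes higher and 5 to 8 lower in cKO after IR, 11 to 20 higher and 1 to 1 lower in WT, 0 to 1 higher in cKO sham and 0 to 1 lower in the interaction. For replication genes these fits gave 24 to 35 higher in cKO, 41 to 45 higher and 0 to 1 lower in WT, and 0 to 1 lower in the interaction. The median of the members stayed below 0 in cKO (−0.54 to −0.20 over the other alternatives) and above 0 in WT (0.34 to 1.25). The cause of these changes was not tested beyond the smaller number of genes or libraries in some fits. Of 18 same-number pairs, 1 correlated above 0.1, WT IR 3 with cKO IR 3 (r = 0.178), and 4 of 12 libraries correlated best with their own number. Such correlations cannot tell whether equal numbers mark a shared day or animal. With the replicate block, 18 mitosis genes passed as higher in WT, against 19.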
